A study of Homo sapiens with 12 samples.

Results

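Long intergenic noncoding RNAs (lincRNAs) are transcripts, mostly from between protein-coding genes, that encode no known protein. Many, but not all, are spliced and polyadenylated much like mRNA. A lincRNA was counted as expressed here when its row of the deposited table carried the biotype lincRNA and its level, averaged over the 12 libraries, was at least 3 FPKM (fragments scaled to gene length and to the fragments of the library). This left 131 of 7629 lincRNA rows, or 1.72%, out of 58735 gene rows in all, and 3873 lincRNAs were above 0 in at least 1 library. The genes were thus chosen by their measured FPKM, and their levels are given as a description. Just inside the limit were AC092279.1 at 3.04 FPKM and LINC01786 and AL355001.2 at 3.01, and just outside it were AC023137.1 at 2.96, AC011450.1 at 2.93 and RAB30-AS1 at 2.92. XIST is 1 of the 131 and is kept in the counts, and its levels are not given.

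RNA was sequenced from KGN and COV434, human cell lines labelled as wild-type granulosa cell tumor, that were untreated or had been treated for 72 h with 77-39, a selective inhibitor of the mitochondrial deacetylase SIRT3. The labels give the dose as 10 μm/ml. There were 3 libraries for each line and treatment. The labels do not say whether the 3 came from separate cultures, so p-values measure only the spread between these libraries, which may be technical. SIRT3 mRNA itself did not pass the test in either line, with limma differences in log2(FPKM + 1) of -0.07 in KGN and 0.15 in COV434.

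FOXL2 and SMARCA2 went against the line labels, while WT1 went the other way from FOXL2. FOXL2, the granulosa transcription factor mutated in adult-type tumors such as that of KGN, had 2 reads over the whole KGN set of 6 and 3769 over the COV434 set. SMARCA2, which COV434 is known not to express, had 13 reads in the first set and 9860 in the second. SMARCA4, listed with SMARCA2 as silent in COV434, averaged at least 1 FPKM in both sets. It was lower in untreated KGN, by 1.47 in log2(FPKM + 1). The granulosa markers AMH, INHA and INHBB were also lower there, by 0.73, 1.48 and 2.98, the direction of FOXL2. WT1, from the same marker list, averaged 59.7 FPKM in untreated KGN and had 0 reads in COV434. FSHR had 0 reads in every library. The line names below are therefore those of the labels, and every difference between lines is one between 2 sets of labels. Of 6 markers of other cells, EPCAM had 1 and 4 reads in the sets labelled KGN and COV434, CDH1 20 and 66, PTPRC 281 and 1, and PECAM1 1 and 66. The stromal genes COL1A1 and DCN averaged 0.117 and 2.18 FPKM in untreated KGN and 12.1 and 8.39 in untreated COV434. Whether other cells contributed to the differences between the lines was not tested.

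From 15547851 to 18280415 reads per library could be recovered from the FPKM and the gene lengths. The 131 lincRNAs took 0.408% to 0.489% of these reads in KGN and 0.209% to 0.291% in COV434, and held 67.2% of all lincRNA reads. Replicates of COV434 spread more than those of KGN. The median coefficient of variation was taken over the lincRNAs with a mean of at least 1 FPKM in the line, without XIST. It was 10.0% in untreated and 10.0% in treated KGN (113 lincRNAs), against 21.9% and 27.5% in COV434 (104 lincRNAs). The lincRNAs compared thus differ in part between the lines. Library 1 of COV434 stood apart in both groups. Of 104 of these lincRNAs with a COV434 mean of at least 1 FPKM, it was the lowest of the 3 libraries for 52 in the untreated group, for 68 in the treated group and for 45 in both. The same count over all genes was not made, so this pattern is not shown to be particular to lincRNAs. The share of reads from mitochondrial genes was highest in treated library 1 of COV434 at 13.5% and, within KGN, in treated library 3 at 8.81%.

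The levels were unevenly spread. The median of the 131 was 4.79 FPKM, 72 lay under 5 FPKM and 24 reached 10 FPKM, and the 10 most abundant held 37.9% of their summed level. Those 10 were SNHG8, a small nucleolar RNA (snoRNA) host gene, at 68.7 FPKM; NORAD, a cytoplasmic RNA that binds PUMILIO proteins, at 61.7; AC117402.1 at 56.4; MALAT1, a nuclear speckle RNA, at 46.2; AL035467.2 at 45.1; PICSAR at 38.5; the snoRNA host SNHG19 at 36.8; AL160408.3 at 32.4; AL161431.1 at 31.7; and NEAT1, the RNA scaffold of paraspeckles, at 22.5. The genes were short, with a median of 1191 bases of merged exons against 4929 for protein-coding genes at the same level, and 35 had a single exon block. Another gene's span overlapped 64 of them. Exons of another gene with reads overlapped 26, of which 14 overlapped a protein-coding gene. The kit named in the labels does not mark strand, so the reads of such pairs cannot be told apart. Of the lincRNAs described below, this holds for AC005332.6 (with LRRC37A16P), SNHG4 (MATR3), EPB41L4A-AS1 (EPB41L4A), MIR34AHG (LNCTAM34A), AC084018.1 and LINC01089 (both AC084018.2 and RHOF), PVT1 (AC103705.1) and MIR4458HG (AC091965.1). LINC01184 shares 39 bases with CCDC192.

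Many of these levels differed by line. A mean of 3 FPKM was reached in both lines by 48 of the lincRNAs, in KGN alone by 56 and in COV434 alone by 27. No read was found for 16 of them in the 6 libraries labelled COV434, and for 8 in the 6 labelled KGN. Between untreated libraries, limma called 64 of 131 higher in KGN, against 32.6% of all 13098 genes tested, and 34 higher in COV434, against 36.4%. A lincRNA that reached the rule through 1 line had to differ between them, so these counts are a description of the choice.

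**Figure D1:**
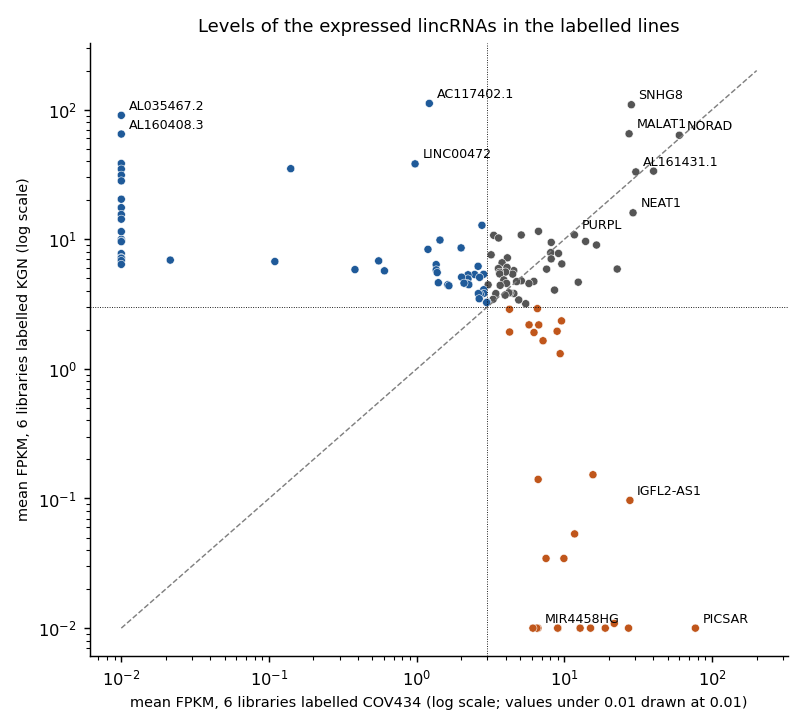
Each point is 1 expressed lincRNA (XIST not drawn), placed by its mean FPKM in the 6 libraries labelled COV434 (x) and the 6 labelled KGN (y), both on log scales, with values under 0.01 drawn at 0.01. Dotted lines mark 3 FPKM and the dashed line equal levels. Blue points reached 3 FPKM in KGN alone, orange in COV434 alone and grey in both, and points along the left and lower edges were nearly or wholly without reads in 1 line.

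AL035467.2 was the most abundant lincRNA read in KGN alone. Its untreated KGN libraries held 80.6, 71.7 and 75.1 FPKM, and its 6 COV434 libraries held 0 reads. Against 3 reads over the COV434 libraries, the floor that a count of 0 allows, its mean over the 6 KGN libraries was at least 5870-fold higher. AC010735.2, with 0 reads in COV434, was at least 744-fold higher in KGN. AL160408.3 and LINC02384 had 2 reads each in all COV434 libraries together, beside 24880 and 10110 reads in KGN. AC117402.1 held 124, 128 and 121 FPKM in untreated KGN and 1.505, 0.82 and 0.965 in untreated COV434, and its mean over all 6 libraries of each line, treated included, was 91.8-fold higher in KGN. AL158209.1 held 30.7, 33.1 and 37.3 FPKM in untreated KGN and 0.412, 0 and 0 in untreated COV434. None of these groups overlapped, which follows from their choice by the largest differences between untreated lines. Floors and read counts here cover counting error only.

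On the COV434 side PICSAR led, with 73.1, 77.7 and 76.7 FPKM in untreated libraries and 0 reads in any library labelled KGN, and its mean over the 6 COV434 libraries was at least 2026-fold higher. LINC00165, which lies 4023 bases from PICSAR on chromosome 21, held 18.8, 19.1 and 24.7 FPKM and also had 0 reads in KGN. AC005392.2 was at least 293.5-fold higher in COV434. IGFL2-AS1 held 22.5, 31.2 and 32.7 FPKM in untreated COV434 and 0.123, 0.167 and 0.029 in untreated KGN, and its mean over all 6 libraries was 286.7-fold higher in COV434. LINC01836 held 21.4, 25.6 and 20.5 FPKM in untreated COV434 and had reads in 1 of the 6 KGN libraries. AC245041.1 held 18.9, 16.9 and 15.2 FPKM in untreated COV434 and was listed at 0 in all KGN libraries.

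The first question of the design was which transcripts 77-39 moved in each line. In KGN, 114 of the 131 lincRNAs passed the filter of a mean of 1 FPKM in the 6 libraries. At an adjusted p under 0.05 (limma, Benjamini-Hochberg over all genes tested), 24 were higher in treated libraries, or 21.1%, against 17.6% of all 12671 genes. Another 18 were lower, or 15.8%, against 16.4% of all genes. These shares lie near the background, and the median difference of the 114 in log2(FPKM + 1) was 0.000135 beside 0.0108 for all genes. Without XIST, treated libraries lay wholly above untreated ones for 26 of 113 and wholly below for 28, beside 26.3% and 23.4% of all genes. In bulk RNA, fewer cells that express a transcript and less of it in each cell cannot be told apart. When all 12 libraries were fitted together so that both lines shared 1 estimate of the spread, 15 of the 114 were called, 11 of them higher. Without both KGN libraries numbered 3, which include the treated one with the highest mitochondrial share, 32 were called. For both of these fits the share of all genes called was not counted.

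Of the lincRNAs that rose in KGN, AC124854.1 had the smallest p. Untreated KGN libraries held 8.22, 9.31 and 8.68 FPKM of it and treated ones 20.7, 20.4 and 18.4, so that the groups were far apart. Its difference in log2(FPKM + 1) was 1.10 ± 0.06 (SE, n = 3 per group; limma adjusted p = 0.000177). It spans 92410256 to 92660863 on chromosome 5 of GRCh38, had 0 reads in COV434, and lies 922361 bases from the nearest protein-coding gene, NR2F1.

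AC007405.3 had the largest difference. Its FPKM went from 3.63, 3.45 and 5.04 in untreated KGN to 10.8, 11.7 and 12 in treated KGN, with no overlap. The difference was 1.32 ± 0.12 in log2(FPKM + 1) (limma adjusted p = 0.00058). In COV434 it held 5.12, 10.6 and 9.33 FPKM untreated and 7.46, 9.95 and 12.2 treated, and these groups overlapped. The description of this row in the table is glutamate rich 2, the name of the protein-coding gene ERICH2, which lies 5638 bases away and also rose in KGN, by 1.60 (limma adjusted p = 0.000327). Whether the row is a noncoding gene of its own is therefore uncertain.

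The others among the 8 risen lincRNAs of smallest p were AL035467.2, AC005332.6, LINC00308, OSER1-DT, LINC00440 and PURPL. AL035467.2 rose from 80.6, 71.7 and 75.1 FPKM to 98.9, 104 and 112, a difference of 0.46 ± 0.07 in log2(FPKM + 1) (limma adjusted p = 0.00295). Its nearest protein-coding gene, OGFRL1, 223120 bases away, rose by 0.46 as well (limma adjusted p = 0.000758). LINC00440 rose from 5.07, 5.98 and 4.92 FPKM to 8.33, 8.20 and 10.3. AC005332.6 rose from 9.56, 9.30 and 9.78 FPKM to 14.6, 13.6 and 12.2, while KPNA2, the nearest protein-coding gene and an importin, fell by 0.39 (limma adjusted p = 0.00165). LINC00308 rose by 0.44 and OSER1-DT, which starts 169 bases from OSER1, by 0.37. OSER1 itself changed by 0.04 (limma adjusted p = 0.559).

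Of those that fell, LINC02001 had the smallest p. It carries the snoRNA gene SNORD7 within its span. Its FPKM went from 5.13, 4.79 and 5.61 to 2.82, 2.87 and 3.10 without overlap, a difference of -0.65 ± 0.07 in log2(FPKM + 1) (limma adjusted p = 0.000894). Then came SNHG15, MIR99AHG, OLMALINC and URB1-AS1, described with their groups below, and AC117402.1, AC084018.1 and AC110285.2. AC117402.1, the most abundant lincRNA of untreated KGN, fell from 124, 128 and 121 FPKM to 98.9, 104 and 94.2, a difference of -0.33 (limma adjusted p = 0.00446). AC084018.1 fell by 0.33 and AC110285.2 by 0.51 on the log2(FPKM + 1) scale. In that joint fit LINC02001, SNHG15, URB1-AS1, OSER1-DT, AC117402.1, AC084018.1 and AC110285.2 were no longer called, and AC084018.1 was also lost with voom on recovered reads and without both libraries numbered 3.

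**Figure D2:**
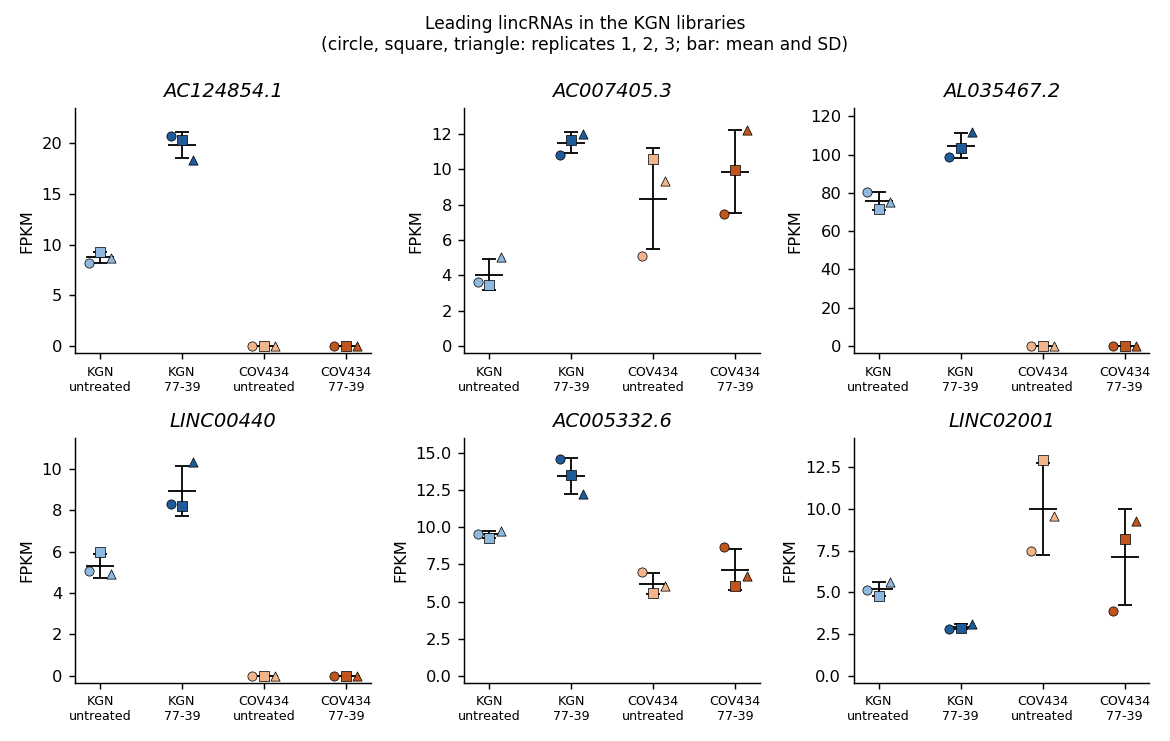
FPKM of 6 leading lincRNAs of the KGN comparison in each of the 12 libraries, by labelled line and treatment. Circles, squares and triangles are replicates 1, 2 and 3, and the bars give the mean and SD of 3 libraries. Treated KGN libraries lie wholly above untreated ones in 5 panels and wholly below in LINC02001, while AC124854.1, AL035467.2 and LINC00440 lie at 0 in COV434.

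In COV434, 104 of the lincRNAs could be tested and 0 passed an adjusted p of 0.05 in limma, beside 0.0415% of all 12060 genes. At an unadjusted p under 0.05, 3 were higher, against 3.52% of all genes, and 5 lower, against 4.49%. Treated libraries lay wholly above untreated ones for 7 of the 104 and wholly below for 8, beside 6.23% and 8.16% of all genes. Same-numbered libraries of COV434 deviated together across genes, with correlations of 0.40, 0.474 and 0.166. Pairs with different numbers ran from -0.469 to 0.154, the highest being untreated 3 with treated 2. Pairing of the libraries numbered 3 is therefore hardly seen. The number was also fitted as a replicate block. With it 1 lincRNA passed the adjusted threshold, PURPL, beside 0.721% of all genes, and 20 had an unadjusted p under 0.05. Without both COV434 libraries numbered 1, which stood apart, 21 had an unadjusted p under 0.05 and 0 an adjusted one. The shares of all genes to set beside the 20 and the 21 were not counted.

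Because none passed, the 5 lincRNAs of smallest p in COV434 are described. PURPL (p53-upregulated regulator of p53 levels), a lincRNA known as a target of the tumor suppressor p53 that in turn limits p53 protein, was the first. Untreated COV434 libraries held 8.12, 7.25 and 8.11 FPKM of it and treated ones 14.7, 17.3 and 14.5. The difference in log2(FPKM + 1) was 0.90 ± 0.14 (SE, n = 3 per group; limma unadjusted p = 0.000194, adjusted p = 0.0769, and adjusted p = 0.0475 with the replicate block). In KGN it rose from 9.55, 7.41 and 8.22 FPKM to 14.9, 12.8 and 12.02, by 0.60 ± 0.10 (limma adjusted p = 0.00592). Neither line showed any overlap between treated and untreated libraries. The response did not differ detectably between the lines, with a difference of -0.30 and an interval from -0.66 to 0.05, and untreated levels differed by 0.09 with an interval from -0.17 to 0.34.

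PURPL lies on the plus strand of chromosome 5 at 27472292 to 27496401 in GRCh38, and CDH9, the nearest protein-coding gene, is 351142 bases away. Its promoter is shown because the gene moved the same way in both lines. The window is chr5:27472042-27472341 of GRCh38.p14, plus strand, 250 bases before to 50 after the RefSeq start. The capitals mark a 20-base match, with no mismatch and no spacer, to the p53 consensus element, 127 to 108 bases before the start:
PURPL promoter: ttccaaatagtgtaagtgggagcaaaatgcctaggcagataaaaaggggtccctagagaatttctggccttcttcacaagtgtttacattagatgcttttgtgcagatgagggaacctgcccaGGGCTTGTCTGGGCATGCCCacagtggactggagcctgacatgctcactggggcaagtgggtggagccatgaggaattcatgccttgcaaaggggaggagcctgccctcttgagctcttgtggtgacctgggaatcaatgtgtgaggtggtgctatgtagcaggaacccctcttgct
The consensus was searched for after the PURPL sequence had been read. RefSeq promoters were given for 47 of the lincRNAs, and of these 47 only PURPL had such a match, which 5 of 27305 promoters of all genes held, or 0.0183%. A match of letters is a description of the window and not a measurement of binding.

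LINC01184 was the other lincRNA higher in both lines at an unadjusted p under 0.05. The share of all genes that meet this threshold in both lines was not counted. In COV434 alone the shares of lincRNAs at that threshold lay near those of all genes, as given above. Genes chosen by a small p tend to have separate groups, so the separations given here are a description. Its FPKM went from 5.57, 5.51 and 5.57 to 7.04, 6.59 and 6.81 in KGN, by 0.25 ± 0.04 in log2(FPKM + 1) (limma adjusted p = 0.00597). In COV434 it went from 2.01, 2.29 and 1.99 to 3.04, 3.13 and 3.16, by 0.41 ± 0.14 (limma unadjusted p = 0.0177, adjusted p = 0.437). Treated libraries lay above untreated ones in both lines. SLC12A2, the cotransporter gene whose start lies 594 bases from that of LINC01184 on the other strand, differed by 0.23 in KGN (limma adjusted p = 0.135).

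OLMALINC (oligodendrocyte maturation-associated lincRNA) and URB1-AS1 were lower in both lines at an unadjusted p under 0.05. OLMALINC went from 5.82, 6.88 and 6.71 FPKM to 4.39, 3.999 and 4.27 in KGN, and from 2.43, 3.52 and 3.27 to 1.33, 1.99 and 2.25 in COV434. The differences were -0.52 in both, with an adjusted p of 0.0023 in KGN and an unadjusted p of 0.0248 and adjusted p of 0.488 in COV434 (limma). Groups did not overlap in either line. SCD, the stearoyl-CoA desaturase gene 8679 bases from OLMALINC, rose by 1.20 in KGN (limma adjusted p = 0.000177) and differed by 0.11 in COV434 (adjusted p = 0.976). URB1-AS1, which starts 104 bases from URB1, went from 7.98, 8.52 and 8.68 FPKM to 5.44, 5.94 and 6.55 in KGN and from 4.21, 5.88 and 4.75 to 2.17, 3.67 and 3.97 in COV434. Its groups too were separate in both lines, and URB1 itself differed by 0.16 in KGN and -0.42 in COV434, past the threshold in neither (limma adjusted p = 0.0787 and 0.743).

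**Figure D3:**
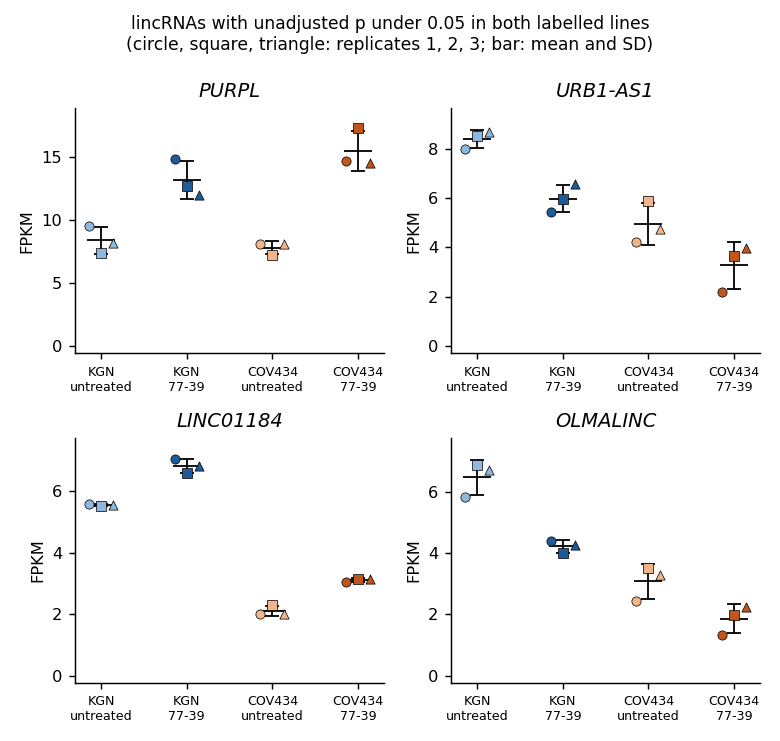
FPKM in each of the 12 libraries of the 4 lincRNAs with an unadjusted limma p under 0.05 and the same direction in both labelled lines. Circles, squares and triangles are replicates 1, 2 and 3, and the bars give the mean and SD of 3 libraries. PURPL and LINC01184 lie higher and OLMALINC and URB1-AS1 lower in treated libraries of each line, with no overlap. Choice by a small p favours separate groups, and the share of all genes that meet the same rule was not counted.

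The OLMALINC promoter is printed as the contrast to that of PURPL, since the gene moved the other way in both lines. It spans chr10:100373326-100373625 of GRCh38.p14, plus strand. Capitals mark a CCAAT box at each of 2 places and a TGACNNNGC match upstream of them:
OLMALINC promoter: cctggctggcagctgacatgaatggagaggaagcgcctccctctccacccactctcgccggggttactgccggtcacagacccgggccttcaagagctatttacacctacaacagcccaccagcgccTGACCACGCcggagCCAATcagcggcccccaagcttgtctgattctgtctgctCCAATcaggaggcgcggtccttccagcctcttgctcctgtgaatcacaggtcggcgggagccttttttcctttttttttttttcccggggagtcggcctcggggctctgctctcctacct
Over the 47 lincRNA promoters, with both strands searched, CCAAT was found in 48.9% against 35.7% of all promoters, TGACNNNGC in 14.9% against 13.6%, and ACGTG in 31.9% against 21.6%. CACGTG, which contains ACGTG, was found in 6.38% against 7.43%, TATAAA in 10.6% against 11.95%, and TGATGNAA in 2.13% against 3.67%.

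The 3 remaining lincRNAs of smallest p in COV434 had no call in KGN. AC008537.2 went from 0.751, 2.20 and 1.24 FPKM to 4.99, 3.03 and 3.94 without overlap, a difference of 1.08 (limma unadjusted p = 0.00238, adjusted p = 0.21), and in KGN its groups overlapped. AL161431.1 went from 33.2, 35.5 and 42.2 FPKM to 25.5, 24.7 and 21.3, a difference of -0.61 (limma adjusted p = 0.262), again with overlap in KGN. AP001574.1, which had 0 reads in KGN, went from 10.9, 9.91 and 12.4 FPKM to 6.61, 8.48 and 5.63. In the joint fit these 3, PURPL and LINC01184 had an adjusted p under 0.05 in COV434.

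snoRNA host genes are spliced transcripts whose introns release snoRNAs, the guides of ribosomal RNA modification, and many of their spliced RNAs are short-lived because nonsense-mediated decay removes them. On the list of named snoRNA hosts were 5 of the expressed lincRNAs: SNHG8 (with SNORA24), SNHG19 (SNORD60), SNHG15 (SNORA9), SNHG4 (SNORA74A and SNORA74D) and EPB41L4A-AS1 (SNORA13). LINC02001, not on that list, also holds a snoRNA gene and fell in KGN, as given above. In KGN 2 of the 5 fell and 0 rose, beside 16.4% of all genes lower and 17.6% higher, with a median difference of -0.37. SNHG15 went from 10.4, 10.5 and 10.8 FPKM to 7.30, 7.10 and 7.94, a difference of -0.46 ± 0.05 (limma adjusted p = 0.00128), and EPB41L4A-AS1 fell by 0.37 (limma adjusted p = 0.0286). SNHG8, the most abundant lincRNA, went from 117, 113 and 115 FPKM to 98.5, 100.5 and 110 without overlap and did not pass (limma adjusted p = 0.0713). SNHG19 went from 53.3, 35.6 and 33.3 FPKM to 22.1, 25.9 and 31.0 and did not pass (limma adjusted p = 0.0512), and SNHG4 differed by 0.08.

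Among all 23 snoRNA hosts tested in KGN, 5 of them expressed lincRNAs by the rule used here, 2 rose and 5 fell. Their median difference was -0.11. Of all genes 17.6% were higher and 16.4% lower, and the share of hosts that fell lies near the latter. The risen hosts were GAS5, from a mean of 56.8 to 77.5 FPKM (limma adjusted p = 0.00379), and SNHG6, from 44.0 to 57.9 (limma adjusted p = 0.0233). SNHG1 fell from 37.0 to 25.6 FPKM (limma adjusted p = 0.000862). Hosts therefore moved both ways. Of the 8 snoRNP proteins 2 fell, FBL and DKC1, and of 10 nonsense-mediated decay factors 2 fell, UPF1 and SMG9, with 0 higher in either list, counts near the 16.4% of all genes that were lower. In COV434 0 of 21 hosts passed in limma, with 1 at an unadjusted p under 0.05, and library 1 again stood apart. SNHG8 had 11.2, 42.8 and 30.4 FPKM in untreated COV434 and 10.8, 36.7 and 38.1 in treated COV434. SNHG15 had 8.85, 22.03 and 16.04, and then 8.37, 21.5 and 22.03. Library 1 was the lowest of 3 in each of these 4 groups, and the spread between replicates exceeded any difference with treatment.

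The abundant RNAs of nuclear bodies and genome stability came next. NEAT1 organises paraspeckles, nuclear bodies that hold RNA-binding proteins and edited RNA. In KGN it went from 19.04, 16.8 and 17.5 FPKM to 15.1, 12.6 and 15.0, a difference of -0.31 ± 0.08 (limma adjusted p = 0.0254), and treated libraries lay below untreated ones. Of 12 paraspeckle proteins 8 fell in KGN and 0 rose, with a median difference of -0.27 beside 0.0107 for all genes, where 16.4% of genes fell. NONO went from a mean of 99.5 to 76.3 FPKM (limma adjusted p = 0.000988) and SFPQ from 57.7 to 46.9 (limma adjusted p = 0.00357). In COV434 NEAT1 held 28.2, 26.2 and 34.2 FPKM untreated and 12.7, 24.7 and 48.6 treated, so the treated libraries lay on both sides of the untreated ones. There 0 of the 12 proteins passed in limma, with 2, SFPQ and RBM14, lower at an unadjusted p under 0.05.

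MALAT1 varied with library more than with treatment. In KGN it held 39.9, 69.8 and 64.7 FPKM untreated and 46.5, 42.8 and 127 treated. In COV434 it held 29.4, 16.3 and 22.9 untreated and 60.7, 17.2 and 17.7 treated. The high library in each treated group was the one with the highest mitochondrial share, and the part of that share in the MALAT1 level was not tested. MALAT1 passed in neither line (limma adjusted p = 0.794 and 0.974), and the interval of its difference in KGN ran from -0.84 to 1.16.

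NORAD had overlapping levels in the untreated lines, at 60.7, 57.4 and 57.1 FPKM in untreated KGN and 76.3, 61.7 and 57.2 in untreated COV434. After 77-39 it rose to 69.5, 70.3 and 65.4 FPKM in KGN, a difference of 0.23 ± 0.05 (limma adjusted p = 0.0139), with no overlap. In COV434 treated libraries held 66.8, 49.7 and 47.8 FPKM, a difference of -0.25 that did not pass (limma adjusted p = 0.851). NORAD is known for repeated PUMILIO sites, TGTANATA in DNA letters. Its transcript of 5339 bases held 15 such sites on the sense strand, 2.81 per kilobase, of 53 in the transcripts of 130 of the lincRNAs together. Bases 2456 to 2655 of NORAD-201, from GENCODE release 29 on chromosome 20, are shown because 3 of the sites lie there, in capitals:
NORAD stretch: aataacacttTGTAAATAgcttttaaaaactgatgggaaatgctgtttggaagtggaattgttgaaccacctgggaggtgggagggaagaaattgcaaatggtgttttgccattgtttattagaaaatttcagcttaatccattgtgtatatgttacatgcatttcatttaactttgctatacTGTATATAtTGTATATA
HCG11 held 16 sites in 5696 bases, also 2.81 per kilobase, NEAT1 held 6, and 115 of the 130 held none. HCG11 went from 6.16, 6.05 and 5.42 FPKM to 7.25, 6.96 and 6.85 in KGN, a rise of 0.22 (limma adjusted p = 0.0234), and from 11.5, 10.5 and 10.2 to 9.99, 7.38 and 7.95 in COV434 (limma adjusted p = 0.676). The pair was set side by side after their values had been seen.

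Of 6 lincRNAs linked to p53 in the literature, MIR34AHG, PVT1, NEAT1, TP53TG1, PURPL and NORAD, 2 rose and 1 fell in KGN, beside 17.6% and 16.4% of all genes, and 0 passed in COV434 without the block, beside 0.0415%. TP53TG1, named as a p53 target, held 3.85, 4.75 and 4.27 FPKM in untreated and 4.69, 4.27 and 5.50 in treated KGN, with overlap. In COV434 it held 3.54, 5.52 and 4.85 and then 4.31, 9.71 and 6.56, also with overlap. MIR34AHG, the host of the p53-induced miR-34a, held 5.87, 5.21 and 5.45 FPKM in untreated KGN and 5.55, 5.38 and 5.72 in treated KGN, and differed by 0.01 with limma adjusted p = 0.903. In COV434 it differed by 0.36 (limma adjusted p = 0.77). PVT1 passed in neither line.

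MicroRNA (miRNA) hosts are the transcripts from which miRNA hairpins are cut, so their level is that of the host RNA and not of the mature miRNA, which was not measured here. Of the expressed lincRNAs 6 were on the list of named miRNA hosts, and lincRNAs off that list were not counted as hosts. Mature sequences from RefSeq (GRCh38.p14) are shown because hosts with opposite line patterns carry miRNAs with the same seed, bases 2 to 8, in capitals. MIR99AHG on chromosome 21 carries miR-99a, let-7c and miR-125b-2, LINC00472 on chromosome 6 spans miR-30a and miR-30c-2, and MIR222HG on the X chromosome carries miR-221 and miR-222:
miR-99a-5p: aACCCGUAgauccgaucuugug
let-7c-5p: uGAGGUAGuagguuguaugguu
miR-4458: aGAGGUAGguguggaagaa
miR-125b-5p: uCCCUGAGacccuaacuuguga
miR-30a-5p: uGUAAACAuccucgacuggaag
miR-30c-5p: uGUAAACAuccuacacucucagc
miR-221-3p: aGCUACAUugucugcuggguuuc
miR-222-3p: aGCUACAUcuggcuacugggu
miR-22-3p: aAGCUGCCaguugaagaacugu
miR-34a-5p: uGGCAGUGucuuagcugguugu
The seed GAGGUAG was shared by let-7c-5p, from MIR99AHG, and miR-4458, from MIR4458HG. The miR-30 pair shared GUAAACA, and the miR-221 and miR-222 pair GCUACAU.

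In KGN 1 of the 5 listed miRNA hosts tested rose and 1 fell, counts near the 17.6% and 16.4% of all genes. MIR99AHG went from 6.52, 6.91 and 7.05 FPKM to 4.87, 4.96 and 4.66, a difference of -0.42 ± 0.05 (limma adjusted p = 0.00144), and MIR22HG from 11.9, 11.7 and 9.95 to 14.2, 14.8 and 14.2, a difference of 0.34 ± 0.07 (limma adjusted p = 0.0108). Neither pair of groups overlapped. LINC00472 held 36.7, 41.3 and 41.7 FPKM in untreated and 35.2, 34.7 and 39.2 in treated KGN, and MIR222HG 7.96, 8.34 and 8.87 and then 7.28, 8.56 and 9.11. Both overlapped and neither passed. MIR99AHG lay between 0.218 and 0.505 FPKM in COV434, and MIR4458HG, at 0 reads in KGN, held 4.16, 6.49 and 6.998 FPKM in untreated and 4.06, 8.56 and 9.42 in treated COV434. MIR99AHG and MIR4458HG, which carry miRNAs with the seed GAGGUAG, were thus more abundant in opposite lines. Each reached 3 FPKM through 1 line alone, so opposite patterns follow in part from the choice. Hosts under the limit of 3 FPKM are not covered.

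Of 10 RNAs listed for nuclear architecture, MALAT1, NEAT1, XIST and NORAD were among the expressed lincRNAs, and in KGN 1 of the 4 rose and 1 fell, beside 17.6% and 16.4% of all genes. Of 5 listed for hypoxia, NEAT1 and MALAT1 were among them and 1 fell in KGN, beside the same 16.4%. MIR210HG, the host of the hypoxia-induced miR-210, is on the same list and lay outside the limit with a mean of 1.92 FPKM. It fell in KGN from a mean of 3.60 to 0.274 FPKM, by 1.84 on the log2(FPKM + 1) scale (limma adjusted p = 0.0004). In COV434 it went from 2.76 to 1.04 FPKM, a difference of -0.87 (limma unadjusted p = 0.00472, adjusted p = 0.269). The list of 5 imprinted RNAs held 0 of the expressed lincRNAs.

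**Figure D4:**
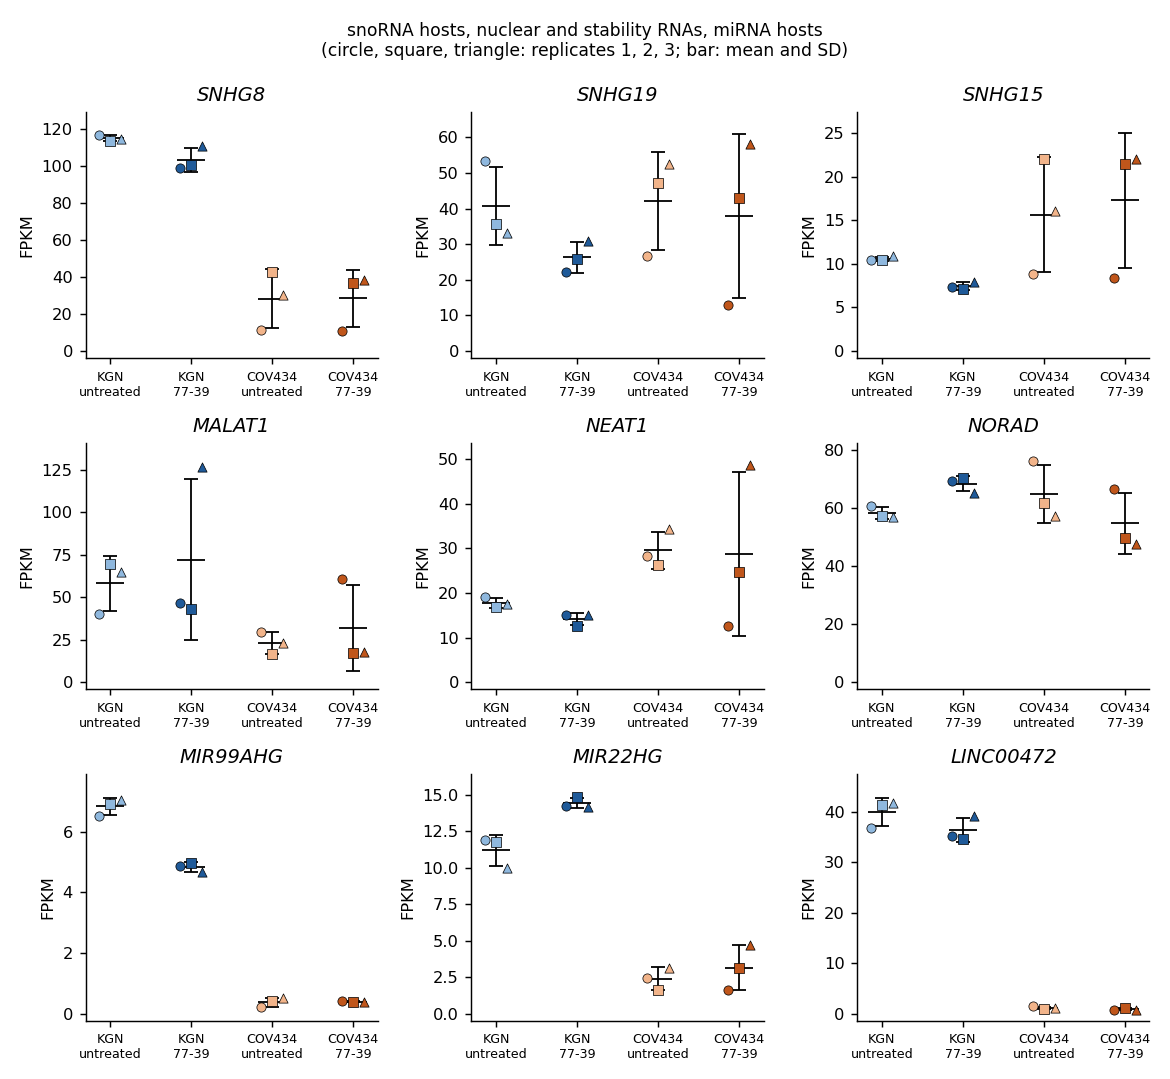
FPKM in each of the 12 libraries of 3 snoRNA hosts (top row), 3 RNAs of nuclear bodies and genome stability (middle row) and 3 miRNA hosts (bottom row). Circles, squares and triangles are replicates 1, 2 and 3, and the bars give the mean and SD of 3 libraries. SNHG15, NEAT1 and MIR99AHG lie lower and NORAD and MIR22HG higher in treated KGN without overlap, circles lie lowest in COV434 for the 3 snoRNA hosts, and single libraries carry the high MALAT1 values.

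The second question was whether the response differed between the lines, tested as an interaction over all 12 libraries. Of the 131 lincRNAs 3 passed, or 2.29%, beside 3.60% of all 13127 genes. These were AC124854.1, with 1.10 ± 0.11 (limma adjusted p = 0.000772), LINC00440, with 0.65 ± 0.14 (limma adjusted p = 0.0293), and AL035467.2, with 0.46 ± 0.11 (limma adjusted p = 0.041). All 3 rose in KGN and had 0 reads in COV434, where no response could be seen, so the test restates the change in KGN and does not show that the lines respond differently. Among the 87 lincRNAs with a mean of at least 1 FPKM in both lines, 0 passed in limma and 8 had an unadjusted p under 0.05. Among all 131, the next in order were AC084018.1 with -0.59 (limma adjusted p = 0.0511), LINC01235 with 0.45 (limma adjusted p = 0.0679) and HCG11 with 0.55 (limma adjusted p = 0.0709). LINC01235 had 1 read over the COV434 libraries, beside 5635 in KGN. Its value too restates the change in KGN and does not show that the lines respond differently. With the replicate block 5 passed, which were AC124854.1, AC007405.3, NORAD, HCG11 and AC084018.1.

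**Figure D5:**
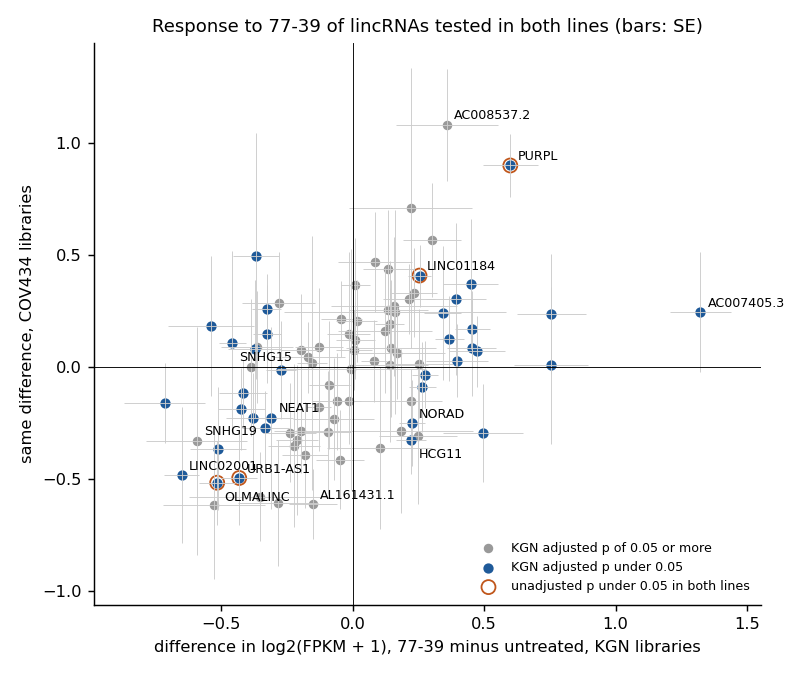
Each point is 1 of the 87 lincRNAs tested in both lines (XIST not drawn), placed by its difference in log2(FPKM + 1) between treated and untreated libraries in KGN (x) and COV434 (y), with SE bars from limma. Blue points passed an adjusted p of 0.05 in KGN, and rings mark an unadjusted p under 0.05 in both lines. PURPL lies at the upper right, OLMALINC and URB1-AS1 at the lower left, and COV434 error bars are the longer.

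Many of these lincRNAs start next to a protein-coding gene. For 35 of the 131 a protein-coding start lay within 1000 bases on the other strand. In KGN 34 such pairs were tested, 19 had the same sign, and across pairs the differences had a Pearson r of 0.09 and a Spearman rho of 0.09. In COV434 31 pairs were tested, 15 had the same sign and r was -0.10. These are descriptions across pairs that share the same libraries. Both partners passed in KGN for 3 of the 34 pairs, each with the same sign, where 17.6% of all genes were higher and 16.4% lower. How many such pairs those shares alone would give was not counted, so the 3 are not shown to be linked. LINC01521 and PATZ1 fell by 0.27 and 0.28, LINC01089 and the histone methyltransferase gene SETD1B fell by 0.42 and 0.22, and AC040977.1 and the lipoxygenase gene ALOX12 rose by 0.39 and 0.47. For MIR22HG and NUP50-DT the lincRNA rose in KGN and the partner, WDR81 or NUP50, did not pass.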

How the data were processed

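The authors deposited 1 table of FPKM per gene and library. The processing notes name HISAT2 2.0.5 and mouse builds, but the coordinates of all 58735 rows match GENCODE release 29 on GRCh38. The tool that counted fragments is not given in the sources used here. The extraction text of the labels speaks of retinas and a TruSeq kit. Libraries were grouped by their titles. FPKM times gene length gave whole reads for 100% of values within 0.05 of a read (15547851 to 18280415 per library).

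Each line was fitted alone with limma (lmFit, eBayes with trend) on log2 of FPKM with 1 added, keeping genes that averaged 1 FPKM or more, two-sided, p adjusted by Benjamini-Hochberg across the genes kept, threshold 0.05. The pseudocount understates changes of low genes. The interaction used all 12 libraries. Scripts were tested on simulated data. Same-numbered libraries correlated in COV434 (0.40, 0.474 and 0.166) and not in KGN (-0.02 in each pair), the hint of pairing coming from the data only. The 0.166 of the libraries numbered 3 was close to the 0.154 of untreated 3 with treated 2.

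The members, gene lists and motifs were chosen with earlier results of these data known. Named were the 10 most abundant, the role lists, up to 8 higher and 8 lower of smallest p in KGN (in COV434 the 5 of smallest unadjusted p), 6 by interaction, 6 higher in each line, and 3 each side of the limit. Others named as lincRNA and neighbour pairs or by site counts were chosen after their values were seen. Alternatives were another pseudocount, filters, median-ratio scaling, voom on recovered reads, a replicate block, a shared fit and leaving out libraries. Values of some neighbouring and listed genes are not reported here.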

Additional observations from a re-analysis of the deposited data

Results flagged for a closer look

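The limma interaction of line and treatment passed for AC124854.1 (1.10 in log2(FPKM + 1)), LINC00440 (0.65) and AL035467.2 (0.46). All 3 had 0 reads in the libraries labelled COV434 and passed the filter through KGN alone, so these values are the changes in KGN and do not show that the lines respond differently. Over the alternatives that gave a value, AC124854.1 passed in 18 of 19 settings, LINC00440 in 7 of 19 and AL035467.2 in 7 of 19. Of the 87 lincRNAs with a mean of at least 1 FPKM in both lines, 0 passed in limma and 8 had an unadjusted p under 0.05.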

How the results depend on the processing

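Of 536 values of single lincRNAs under alternatives, 490 kept their direction and side of the threshold, 34 lost and 12 gained the call, and 0 reversed. The 536 include the lincRNAs chosen for the largest differences between untreated lines. Each of those passed in 12 of 12 settings, which follows in part from that choice. The pooled 490 therefore does not measure how stable the responses to treatment were. In KGN, 42 lincRNAs were called, 31 to 48 with 1 library left out and 15 in 1 fit of all 12 libraries. No filter gave 28 and left 64.3% of calls higher, against 57.1%, the shared fit 73.3%, and leaving out both libraries numbered 3, chosen after seeing the data, 46.9% of 32. The replicate block gave 42 in KGN, sharing 38 calls. In COV434 0 were called in limma, with 1 library left out as well, beside 1 with the replicate block and 5 in the shared fit. At an unadjusted p under 0.05 there were 8, with 5 to 15 when 1 library was left out, 20 with the replicate block, 18 in the shared fit and 21 without both libraries numbered 1. Treated replicate 1, left out alone, gave 15, treated replicate 3 14 and untreated replicate 3 5. Between untreated lines 98 were called, with 91 to 106 when 1 library was left out. For the interaction 3 were called, 1 with a pseudocount of 0.1, 0 with voom, 5 with the replicate block, 0 at 1 FPKM in both lines, and 1 to 6 with 1 library left out, the 6 without treated COV434 replicate 1. A limit of 1, 5 or 10 FPKM gave 408, 59 or 24 lincRNAs in place of 131. Depth limits the shortest: 3 reads of a 1 kb gene are 0.152 to 0.2004 FPKM. Where an alternative moved a count, the cause was not tested. Apart from adjusted calls with the replicate block in COV434, shares of all genes under the alternatives were not counted. A moved count or share is therefore not shown to be particular to lincRNAs.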
